A study of Mus musculus with 54 samples.

Results

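The 9 genes described here, Mbp, Mobp, Mal, Mog, Mag, Cnp, Cldn11, Opalin and Ugt8a, encode proteins that mature oligodendrocytes use to build central myelin. They were chosen by name, and each was found by its Ensembl identifier as 1 of the 47069 gene rows of a brain RNA-seq count table. The table held 54 libraries of polyA RNA, with 1 library of striatum, 1 of cortex and 1 of cerebellum from each of 18 mice aged 8 weeks. Of these mice, 10 were Mbd5+/GT and 8 were wild-type (WT) littermates, all on a C57BL/6 background. Mbd5+/GT mice are heterozygous for a gene trap construct, pU-21B, inserted in intron 2 of Mbd5, which leaves a hypomorphic allele and is not limited to one cell type. The mice came from 3 litters, and litter 1 held females, litter 2 males and litter 3 both sexes. Litter 2 contributed 4 Mbd5+/GT mice and 1 WT mouse. The striatum libraries of M751 and M752, both WT mice of litter 3, carry rep in their labels, which do not say what was repeated. Whole pieces of tissue were extracted, so a lower level of these transcripts can come from fewer oligodendrocytes or from less RNA per cell, which cannot be told apart in these libraries.

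Myelin is the wrapping that oligodendrocytes lay around axons in sheets of compacted membrane, and tracts rich in it form the white matter. A mature oligodendrocyte devotes much of its RNA to a small set of abundant myelin transcripts. The striatum is crossed by fibre bundles, the cortex holds myelinated axons mainly in its deeper layers, and the cerebellum has a central white matter below a very dense layer of granule neurons. Mbp encodes the basic protein that holds the inner faces of the membrane together, Mobp encodes another basic protein of compact myelin, and Mal encodes a proteolipid that sorts myelin components. Mog and Mag lie on the outer and the axon-facing surface of the sheath. Cnp encodes a cyclic nucleotide phosphodiesterase that keeps cytoplasmic channels open in non-compact myelin, and Cldn11 encodes the claudin of the tight junctions between its layers. Opalin encodes a glycoprotein of the oligodendrocyte membrane, and Ugt8a encodes the galactosyltransferase that makes galactosylceramide, the main glycolipid of myelin.

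The transcription factors Myrf and Sox10 drive several of these genes in oligodendrocytes, so the bases before the start of transcription were read for letters that such factors are known to prefer. RefSeq promoter sequences on GRCm38.p6 were at hand for 8 of the 9 members. The windows reached up to 250 bases upstream, and bases inside the annotated gene were left out. Capitals mark matches, on either strand, to CTGGCAC or CTGGTAC (Myrf), ACAAAG or ACAATG (Sox family) and CAGCTG or CAGATG (the E-box of Olig proteins). Shown are the windows of both surface proteins, followed by those of Opalin and Ugt8a, the genes whose level relative to Mbp differed most between regions.
Mog, chr17:37023399-37023648, minus strand: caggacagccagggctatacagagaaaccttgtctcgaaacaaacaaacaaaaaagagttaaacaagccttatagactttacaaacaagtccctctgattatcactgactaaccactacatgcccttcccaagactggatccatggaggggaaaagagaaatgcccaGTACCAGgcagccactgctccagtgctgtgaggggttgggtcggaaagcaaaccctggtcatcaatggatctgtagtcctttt
Mag, chr7:30914874-30915113, minus strand: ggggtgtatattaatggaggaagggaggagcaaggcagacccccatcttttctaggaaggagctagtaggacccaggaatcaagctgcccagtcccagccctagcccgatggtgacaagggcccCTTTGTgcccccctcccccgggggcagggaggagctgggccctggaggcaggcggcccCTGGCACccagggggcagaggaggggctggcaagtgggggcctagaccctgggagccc
Opalin, chr19:41077114-41077363, minus strand: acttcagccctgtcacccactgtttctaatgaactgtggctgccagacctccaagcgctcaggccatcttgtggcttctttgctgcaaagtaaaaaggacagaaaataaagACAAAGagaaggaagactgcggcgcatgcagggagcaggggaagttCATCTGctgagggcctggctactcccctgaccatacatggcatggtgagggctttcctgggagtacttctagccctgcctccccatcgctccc
Ugt8a, chr3:125938653-125938902, minus strand: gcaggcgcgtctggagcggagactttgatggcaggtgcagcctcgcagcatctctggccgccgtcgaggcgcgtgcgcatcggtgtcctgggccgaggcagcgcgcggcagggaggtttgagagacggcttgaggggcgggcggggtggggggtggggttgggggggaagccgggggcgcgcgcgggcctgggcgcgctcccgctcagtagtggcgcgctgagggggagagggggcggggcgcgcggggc

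The Myrf letters CTGGCAC were present in 2 of 8 windows, those of Mag and Cnp, against 4.19% of the 32851 mouse promoter windows of 250 bases. The variant CTGGTAC was present in 1 of 8, that of Mog, against 1.83% of all windows. The Sox letters ACAAAG were present in 4 of 8 (Mobp, Mag, Cnp and Opalin) against 16.5%, and ACAATG in 0 of 8 against 10.7%. The E-box CAGATG was present in the Opalin window alone, against 14.4% of all windows, and CAGCTG in 0 of 8 against 13%. The Ugt8a window held none of these letters and was rich in GC (76.8%, where the median window had 52.4%). These are matches of letters in a short window and describe no bound site.

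Before the myelin genes were compared, the gene trap and the tissue of each library were checked. Mbd5 fell in Mbd5+/GT mice in all 3 tissues, to 76.7% of the WT mean in cerebellum (42.9 ± 11.4 against 55.9 ± 11.4 CPM, that is counts divided by the library total and scaled to a common depth, SD), 70.2% in cortex and 74.7% in striatum (adjusted p = 0.0091, 0.00012 and 9.4e-05, edgeR's quasi-likelihood F-test, with p adjusted after Benjamini and Hochberg). Libraries held 25295973 to 49027399 counts on genes, with a median of 29073866, and the lowest value of the scarcest member, Opalin, rested on 161 counts. The library labelled cerebellum of M755 (Mbd5+/GT) held 1.79 CPM of Gabra6, a receptor subunit of cerebellar granule neurons, where the 14 libraries without Hox reads had 556 to 974 CPM. It also held 318 CPM over 12 Hox genes, which mark the hindbrain and spinal cord and were at or below 2.72 CPM in those 14 libraries. The cerebellum libraries of M754 (WT), M761 (WT) and M756 (Mbd5+/GT) held 150, 59.7 and 54.5 CPM of Hox transcripts, with Gabra6 at 226, 674 and 740 CPM. In striatum, 5 libraries had a level of Drd2, a dopamine receptor of striatal neurons, no higher than the 41.8 CPM reached in cortex. They came from M754 and M761 (WT, 2.8 and 17.2 CPM) and from M763, M756 and M755 (Mbd5+/GT, 29.3, 38 and 38.1 CPM), while the other 13 had 62.7 to 212 CPM. All 5 mice were females, and 4 of them were those with Hox reads in cerebellum. Results on the members' differences are given with these 9 libraries and, where leaving them out changes a call or a sign, also without them. Where only the size of a difference between regions moves, this is given for some members and as a median over the members. These libraries are called the Hox and the low Drd2 libraries. The use of this split was decided after the levels had been seen.

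The 9 members together took 0.221% to 2.24% of the counts on genes in a library. In striatum the share was 0.464% in the lowest library, 0.996% at the median and 1.3% in the highest. Cortex was lower, at 0.221%, 0.422% and 0.567%. In cerebellum the values were 0.307%, 0.485% and 2.24%, and the highest was that of the library labelled cerebellum of M755. The 4 Hox libraries held 0.633%, 0.684%, 1.36% and 2.24% and lay above all 14 others, whose range was 0.307% to 0.623%. The 5 low Drd2 libraries of striatum lay below all 13 others, at 0.464% to 0.722% against 0.773% to 1.3%. The plot of the myelin share against these markers shows both groups of libraries apart. The part that Hox-bearing or cortical tissue plays in these shares was not tested. Slc17a7, a glutamate transporter of cortical excitatory neurons, ranged from 14.4 to 1080 CPM in striatum and did not follow the mean log2 level of the members there (Pearson r = −0.10, Spearman's rho = −0.05 across 18 libraries of separate mice, as a description). Over the same libraries Drd2 had r = 0.70 with the members, and a list of striatal neuron markers 0.69. Over the 13 libraries left without the low Drd2 libraries these were −0.13 and −0.20.

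**Figure D1:**
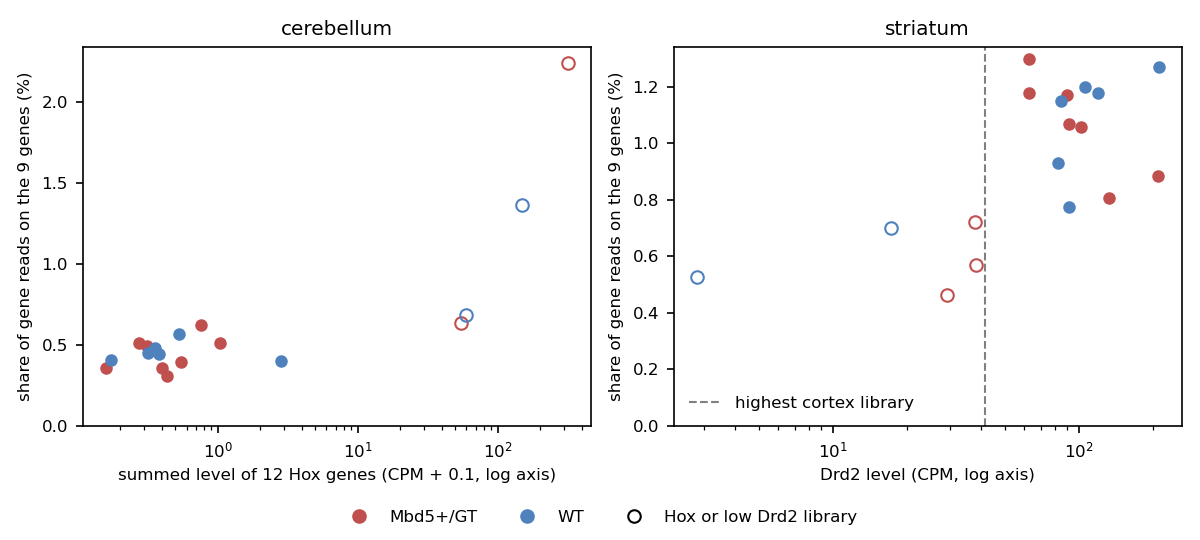
Share of gene reads on the 9 myelin genes (percent) in each of 18 cerebellum libraries against the summed level of 12 Hox genes (CPM + 0.1, log axis), and in each of 18 striatum libraries against Drd2 (CPM, log axis), coloured by genotype. Open circles are the 4 Hox libraries (0.633% to 2.24%) and the 5 low Drd2 libraries (0.464% to 0.722%), and the dashed line is the highest cortex library, at 41.8 CPM of Drd2.

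On GRCm38 the members are Mbp (ENSMUSG00000041607, chromosome 18), Mobp (ENSMUSG00000032517, chromosome 9), Mal (ENSMUSG00000027375, chromosome 2), Mog (ENSMUSG00000076439, chromosome 17), Mag (ENSMUSG00000036634, chromosome 7), Cnp (ENSMUSG00000006782, chromosome 11), Cldn11 (ENSMUSG00000037625, chromosome 3), Opalin (ENSMUSG00000050121, chromosome 19) and Ugt8a (ENSMUSG00000032854, chromosome 3). Their levels were compared per kilobase of annotated exon. In striatum the medians ran from Mbp (630 CPM per kb) over Mobp (321), Mal (212), Cnp (184), Cldn11 (156), Mag (105) and Mog (99.7) to Ugt8a (21.2) and Opalin (17 CPM per kb). Neighbours in this order overlapped in their ranges over the 18 mice, except Mog (41 to 145 CPM per kb) and Ugt8a (10.7 to 31.4 CPM per kb). Cortex and cerebellum also had Mbp and Mobp at the top, at 267 and 140 CPM per kb in cortex and 319 and 136 CPM per kb in cerebellum. Opalin was last in both, at a median of 7.21 CPM per kb in cortex and 5.03 CPM per kb in cerebellum. Cnp stood above Mal in cerebellum (106 against 75 CPM per kb) and below it in cortex (75.5 against 94.7 CPM per kb), with overlapping ranges in each region.

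**Figure D2:**
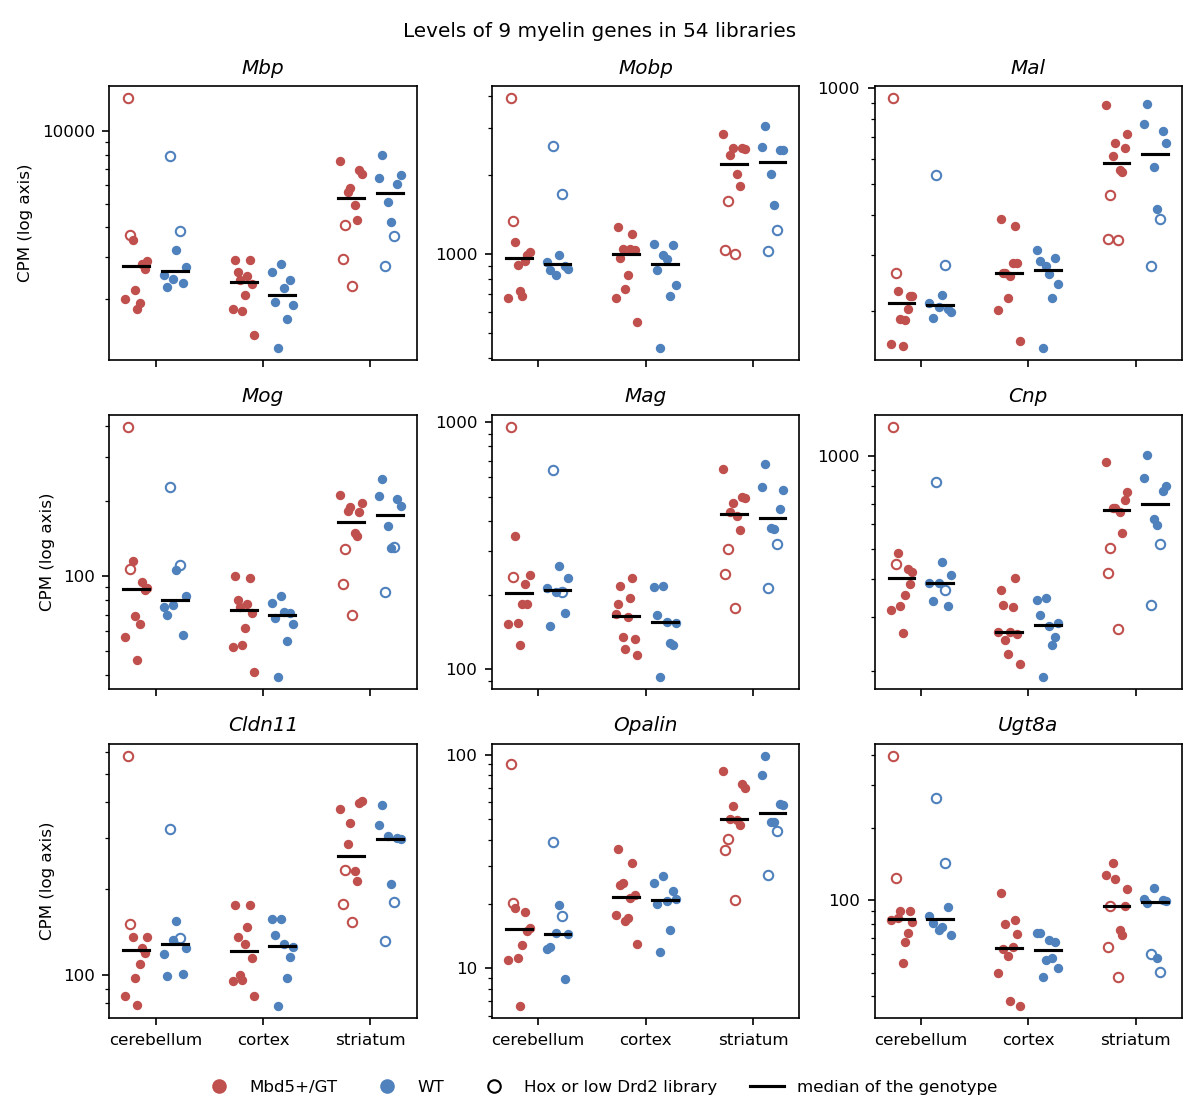
Levels of the 9 myelin genes (CPM, log axis, 1 panel per gene) in cerebellum, cortex and striatum, with 1 point per library, coloured by genotype, and bars at the median of each genotype. Open circles are the Hox libraries of cerebellum and the low Drd2 libraries of striatum. The library labelled cerebellum of M755 is the highest cerebellum point in every panel (Mbp at 13718 CPM), and the medians of the genotypes lie close together in each region.

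The first comparison addressed how myelin transcripts differed between the regions of these mice. All 9 members were called higher in striatum than in cortex, with log2 differences of 0.45 to 1.34, and 8 of 9 were called higher in striatum than in cerebellum. In cortex against cerebellum 5 of 9 were called lower and 0 higher. In the edgeR fit over all 54 libraries, with both genotypes weighted equally, 28.9% of the 20477 genes tested were called higher in striatum than in cortex at an adjusted p under 0.05, 37.3% higher in striatum than in cerebellum and 35.5% lower and 33.3% higher in cortex than in cerebellum. Over all 54 libraries the share of members called exceeded this background in striatum. All 9 members passed the filter on low counts. Without litter 2, 4 of 9 remained called for striatum against cerebellum (Mobp, Mal, Cldn11 and Opalin). Mbp, Mog, Mag and Cnp were lost at adjusted p-values of 0.24, 0.12, 0.11 and 0.062 (edgeR). The share of all genes called in that fit is not given here, so an excess of members over it is not shown. The median log2 difference of the members was then 0.47, against 0.03 over all genes.

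Among the genes of compact myelin, Mbp had 2261, 5334 and 7960 CPM in the lowest, median and highest striatum library. In cortex it had 1249, 2264 and 2918 CPM, and in cerebellum 1815, 2700 and 13718 CPM. Striatum exceeded cortex in 18 of 18 mice, although the ranges touched through the low Drd2 libraries, and without them the lowest striatum library, at 4180 CPM, lay above every cortex library. The log2 difference of Mbp was 1.22 ± 0.20 (SE) for striatum minus cortex (adjusted p = 1.7e-06), 0.56 ± 0.20 for striatum minus cerebellum (adjusted p = 0.011) and −0.66 ± 0.20 for cortex minus cerebellum (adjusted p = 0.0032, edgeR). The last of these did not pass the test without the Hox and low Drd2 libraries (−0.16 ± 0.11, adjusted p = 0.19), where striatum minus cerebellum was 1.285 ± 0.12.

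Mobp is the other basic protein gene of compact myelin. Its levels were 994, 2201 and 3072 CPM in striatum (lowest, median, highest), 437, 959 and 1264 CPM in cortex and 680, 932 and 3904 CPM in cerebellum. The medians of cortex and cerebellum thus lay side by side, and their difference, −0.40 ± 0.19, did not pass the test (adjusted p = 0.056). Without the Hox and low Drd2 libraries its sign turned, to 0.06 ± 0.11 (adjusted p = 0.66). Striatum minus cortex was 1.15 ± 0.19 (adjusted p = 1.6e-06).

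Mal, the sorting proteolipid, had the higher median in cortex than in cerebellum. It had 277, 589 and 890 CPM in striatum, 153, 263 and 387 CPM in cortex and 155, 208 and 927 CPM in cerebellum. Cortex minus cerebellum was 0.03 ± 0.18 over all libraries (adjusted p = 0.90) and 0.44 ± 0.10 without the Hox and low Drd2 libraries (adjusted p = 0.00026), with cortex higher in 13 of the 14 mice that remained. Striatum minus cerebellum was 1.14 ± 0.18 (adjusted p = 2.1e-07).

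The genes of the surface proteins were, like Mbp, called higher in striatum than in both other regions and lower in cortex than in cerebellum. Mog, the protein of the outermost lamella, had 69.8, 170 and 247 CPM in striatum, 39.3, 71.1 and 100 CPM in cortex and 45.7, 85.4 and 397 CPM in cerebellum. Mag, which faces the axon, had 177, 426 and 678 CPM in striatum, 93.2, 159 and 235 CPM in cortex and 126, 209 and 954 CPM in cerebellum. In both genes the cerebellum range enclosed that of cortex except at its lowest end. Striatum exceeded cortex by 1.20 ± 0.20 for Mog and by 1.34 ± 0.20 for Mag, the largest of the 9 (adjusted p = 1.6e-06 and 3.0e-07). Cortex minus cerebellum was −0.59 ± 0.20 for Mog and −0.70 ± 0.20 for Mag (adjusted p = 0.0069 and 0.0019). Without the Hox and low Drd2 libraries these were −0.13 ± 0.12 (adjusted p = 0.32) and −0.28 ± 0.13 (adjusted p = 0.043), so the call of Mog was lost.

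Cnp, the enzyme of non-compact myelin, was called lower in cortex than in cerebellum both with and without the Hox and low Drd2 libraries. Its levels were 275, 668 and 1006 CPM in striatum, 192, 275 and 401 CPM in cortex and 267, 386 and 1241 CPM in cerebellum. Cerebellum exceeded cortex in 17 of 18 mice, and cortex minus cerebellum was −0.61 ± 0.15 (adjusted p = 0.00041), or −0.35 ± 0.09 without the Hox and low Drd2 libraries (adjusted p = 9.0e-04). Striatum minus cortex was 1.15 ± 0.15 (adjusted p = 2.7e-08). On a stretch of 154 exonic bases Cnp overlaps Dnajc7 on the opposite strand, and since the strand setting of the counting is not given in the sources used here, reads there cannot be assigned with certainty.

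Cldn11, the tight junction claudin, had 132, 292 and 403 CPM in striatum, 78.6, 127 and 176 CPM in cortex and 79.1, 125 and 579 CPM in cerebellum. The cerebellum range took in nearly all of that of cortex and reached above it, while without the Hox libraries it ended at 154 CPM. Cortex minus cerebellum was −0.26 ± 0.19 (adjusted p = 0.22), or 0.16 ± 0.11 without the Hox and low Drd2 libraries (adjusted p = 0.22). Striatum exceeded cortex by 1.09 ± 0.19 and cerebellum by 0.83 ± 0.19 (adjusted p = 4.4e-06 and 0.00012).

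Opalin had the largest excess of striatum over cerebellum of the 9 members. It had 20.8, 50 and 98.5 CPM in striatum, 11.9, 21.3 and 36.1 CPM in cortex and 6.7, 14.8 and 90.3 CPM in cerebellum. Outside the Hox libraries no cerebellum library exceeded 19.8 CPM, which is below the median of cortex. Striatum minus cerebellum was 1.504 ± 0.23 (adjusted p = 5.8e-08), or 2.24 ± 0.16 without the Hox and low Drd2 libraries. Cortex minus cerebellum was 0.18 ± 0.22 (adjusted p = 0.48), and 0.69 ± 0.14 without them (adjusted p = 4.0e-05). Leaving out the library labelled cerebellum of M755 alone was enough for this call (0.48 ± 0.17, adjusted p = 0.011).

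Ugt8a, the galactosylceramide enzyme, was the member whose levels differed least between striatum and the other regions. It had 48.3, 96 and 142 CPM in striatum, 36.7, 63.7 and 107 CPM in cortex and 54.8, 83.6 and 396 CPM in cerebellum, and all 3 ranges overlapped. Striatum minus cortex was 0.45 ± 0.19 (adjusted p = 0.040), a call that was lost when any 1 of 8 mice (M751, M752, M753, M757, M760, M762, M765 or M768) was left out, at adjusted p-values of 0.054 to 0.078. Striatum minus cerebellum was −0.32 ± 0.19 (adjusted p = 0.13), and its sign turned to 0.38 ± 0.12 without the Hox and low Drd2 libraries (adjusted p = 0.0065). Cortex minus cerebellum was −0.78 ± 0.19 (adjusted p = 0.00042), or −0.27 ± 0.12 without them (adjusted p = 0.036), with cerebellum higher in 17 of 18 mice.

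**Figure D3:**
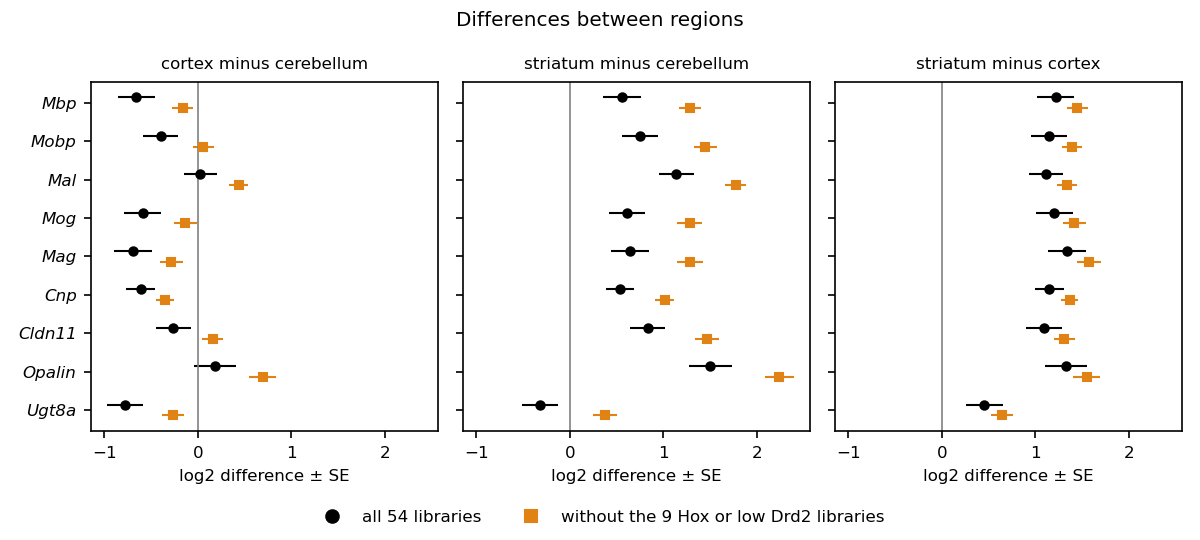
Log2 differences between regions for the 9 members (points, with bars of 1 SE, edgeR), over all 54 libraries (black circles) and without the 9 Hox or low Drd2 libraries (orange squares). Striatum minus cortex is above 0 for every member, from 0.45 to 1.34 over all libraries, and the values of cortex minus cerebellum lie to the right in every member when the 9 libraries are left out.

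Without the 9 Hox or low Drd2 libraries, all 9 members were called higher in striatum than in cortex and than in cerebellum, against 32.2% of all genes tested for cortex and 39.7% for cerebellum. The median log2 difference over the members was then 1.39 for striatum minus cortex and 1.29 for striatum minus cerebellum. Over all libraries these medians were 1.15 and 0.65. For cortex against cerebellum 3 members were called lower in cortex (Mag, Cnp and Ugt8a), where 35.5% of genes were, and 2 were called higher (Mal and Opalin), where 36.2% were.

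Each member was also set against Mbp in the same library, as a description of the mix of myelin transcripts at a given level of Mbp. Opalin was at a median of 0.543% of the Mbp level in cerebellum, 0.955% in cortex and 1.03% in striatum. Both cortex and striatum exceeded cerebellum in 18 of 18 mice. Mal, at 7.8%, 12.2% and 11.2%, was likewise lowest in cerebellum among the regions in 18 of 18 mice. Relative to Mbp, the log2 difference of cortex minus cerebellum had a median of 0.87 for Opalin and a lowest value of 0.35 over mice and of 0.56 for Mal, with a lowest value of 0.21. Cldn11 was higher relative to Mbp in cortex than in cerebellum in 18 of 18 mice as well, at medians of 5.92% and 4.44%. Mog had medians of 3.07%, 3.09% and 3.14% in cerebellum, cortex and striatum, with ranges that overlapped. Ugt8a went the other way, at 3.35%, 2.83% and 1.68%, and was lower in striatum than in cerebellum in 17 of 18 mice and than in cortex in 16 of 18. The highest cerebellum library of Opalin, at 0.668%, lay below the lowest of cortex, at 0.833%.

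**Figure D4:**
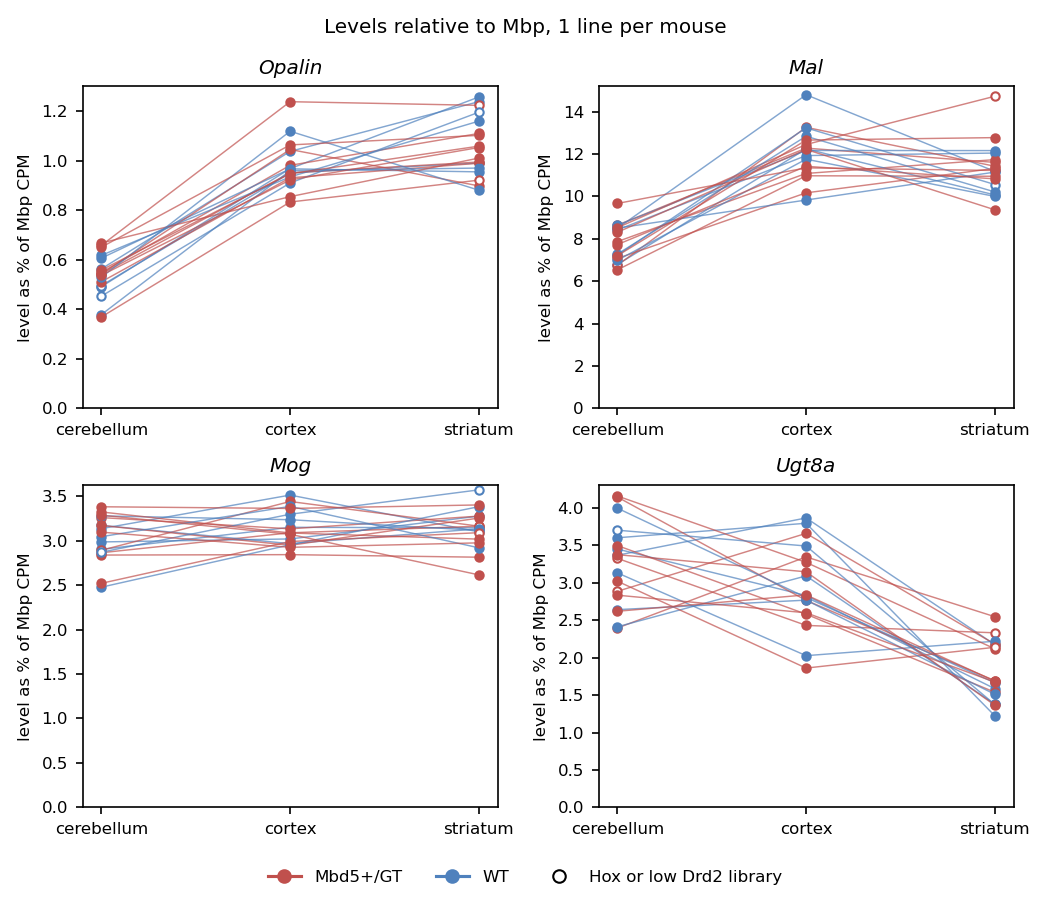
Levels of Opalin, Mal, Mog and Ugt8a as a percentage of the Mbp level (CPM over CPM) in the same library, with 1 line per mouse across cerebellum, cortex and striatum, coloured by genotype. Opalin and Mal are lowest in cerebellum in all 18 mice, Mog lies between 2.48% and 3.57%, and Ugt8a is lowest in striatum in most mice. Open circles are Hox or low Drd2 libraries.

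The same contrasts were read for 36 other genes of myelin and oligodendrocytes. In striatum against cortex 34 of 36 were called higher and 0 lower, with the smallest p for Trf, which encodes transferrin (1.91 ± 0.21), Cers2, a ceramide synthase (0.74 ± 0.09), and Cmtm5 (0.98 ± 0.12). Myrf, the regulator of myelin genes, had a log2 difference of 0.94 ± 0.17 (adjusted p = 7.8e-06). In striatum against cerebellum 18 were called higher and 2 lower. Jam3, a junctional adhesion molecule, and the lineage factors Olig1 and Olig2 led those that were higher, by 0.76 ± 0.11, 1.16 ± 0.17 and 0.995 ± 0.15. The genes called lower were Cntn2, an axonal contactin that granule neurons also express (−1.16 ± 0.09), and Gjc3, a connexin (−0.47 ± 0.11), while Adamts4, a secreted protease, was at −0.31 ± 0.15 (adjusted p = 0.052). Myrf was higher by 0.55 ± 0.17 (adjusted p = 0.0033). In cortex against cerebellum 25 of 36 were called lower and 1, Jam3, higher (0.25 ± 0.11). Cntn2, Cmtm5 and Apod, which encodes apolipoprotein D, had the smallest p among the lower genes, at −1.47 ± 0.09, −1.03 ± 0.12 and −1.02 ± 0.12. Myrf was at −0.39 ± 0.17 (adjusted p = 0.038). Without the Hox and low Drd2 libraries 35 of 36 were called higher in striatum against cortex, 29 higher and 1 lower in striatum against cerebellum, and 6 higher and 19 lower in cortex against cerebellum. Without litter 2 the count in striatum against cerebellum was 9 of 36 higher and 2 lower. Over all libraries 37.3% of all genes were called higher there, so 9 of 36 shows no excess over that share. The share for the fit without litter 2 and shares called lower in striatum are not given here.

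Among earlier stages of the lineage, the summed level of precursor markers had another order of regions than the members, while that of newly formed oligodendrocytes had the same order of medians. The median sum of 8 precursor markers was 255 CPM in striatum, 239 CPM in cortex and 136 CPM in cerebellum. That of 7 markers of newly formed oligodendrocytes was highest in striatum, followed by cerebellum at 336 CPM and cortex at 321 CPM, where the members had 9814, 4753 and 4231 CPM. Of the 8 markers of oligodendrocyte precursors, 5 were called higher and 1 lower in cortex against cerebellum, with a median log2 difference of 0.76 where the members had −0.59. In striatum against cortex 3 were called higher and 3 lower (median 0.21, members 1.15). Over all genes, 33.3% were called higher and 35.5% lower in cortex against cerebellum. For striatum, 28.9% were called higher against cortex and 37.3% against cerebellum, and shares called lower are not given here. The count of 3 of 8 higher is near its share, and counts in lists this small are a description. Of the 7 markers of newly formed oligodendrocytes, 4 were called higher and 1 lower in striatum against cerebellum, 3 higher and 2 lower in striatum against cortex, and 3 higher and 2 lower in cortex against cerebellum. Their median log2 differences were 0.43, 0.15 and 0.38 in that order. In cortex against cerebellum the sign was thus opposite to that of the members, although the sums had the same order. Without the Hox and low Drd2 libraries the precursor markers numbered 6 higher and 1 lower in cortex against cerebellum and 4 higher and 3 lower in striatum against cortex. The newly formed markers then numbered 5 higher and 1 lower, 4 higher and 2 lower, and 3 higher and 1 lower in the order given above. Without litter 2, 1 precursor marker was called higher and 1 lower in striatum against cortex, and the share of all genes in that fit is not given here. Over all genes tested the median was −0.02 for cortex minus cerebellum, 0.002 for striatum minus cerebellum and −0.0017 for striatum minus cortex. Microglial markers were called higher in 8 of 8 cases in cortex and in striatum against cerebellum, with and without the Hox and low Drd2 libraries. Their part in the differences of the members was not tested.

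The second comparison asked whether the gene trap changed myelin transcripts. In each region 0 of 9 members were called between Mbd5+/GT and WT mice by edgeR with surrogate variables, at an adjusted p under 0.05 or at an unadjusted p under 0.05. DESeq2 also called 0 of 9 in each region. Among all genes tested, 0.00551% were called in cerebellum, 0.0107% in cortex and 0.00539% in striatum at the adjusted threshold, and 2.75%, 8.47% and 7.44% at the unadjusted one, so counts of 0 of 9 are near the background. For every member and region the ranges of the genotypes overlapped.

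In cerebellum Mbp had 1815, 2741 and 13718 CPM in Mbd5+/GT mice (lowest, median, highest of 10) and 2234, 2616 and 7858 CPM in WT mice (of 8). In cortex it had 1412, 2354 and 2918 CPM against 1249, 2076 and 2808 CPM. In striatum it had 2261, 5258 and 7525 CPM against 2752, 5550 and 7960 CPM. In each region the median of one genotype lay well inside the range of the other. The log2 difference of Mbp, Mbd5+/GT minus WT, was −0.04 in cerebellum (95% confidence interval −0.15 to 0.07), 0.12 in cortex (−0.20 to 0.45) and −0.12 in striatum (−0.52 to 0.27).

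Over the 9 members the log2 differences ran from −0.06 to 0.05 in cerebellum (median −0.02), from −0.01 to 0.15 in cortex (median 0.09) and from −0.18 to −0.01 in striatum (median −0.11). The medians over all genes tested were −0.0035, −0.0042 and −0.0099. In cortex 8 members had a positive sign, led by Mobp (0.15, −0.25 to 0.54), and in striatum all 9 had a negative sign, led by Mog (−0.18, −0.57 to 0.20) and Cnp (−0.17, −0.54 to 0.20). The members move together from mouse to mouse, so shared signs within a region are not separate observations. The intervals in cortex and striatum allow changes of up to 0.54 upward and 0.57 downward. Without litter 2 all 9 differences in striatum turned positive, from 0.04 to 0.25, and without a filter on low counts all 9 in cortex were negative. In each case 0 of 9 were called.

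Intervals were narrowest in cerebellum, where the surrogate variables took up 98.6% of the variance of the mean log2 level of the members, against 18.7% in cortex and 58.8% in striatum. Without surrogate variables the difference of Mbp in cerebellum was 0.13 ± 0.39 (adjusted p = 1) and that of Opalin 0.34 ± 0.43. Without the 4 Hox libraries the 9 differences ran from −0.14 to −0.03, and without the 5 low Drd2 libraries those in striatum ran from −0.07 to 0.14, again with 0 of 9 called. In cortex, choroid plexus markers were also set against genotype and the members. Of 7 such markers 6 were higher in Mbd5+/GT mice at an unadjusted p under 0.05, where 8.47% of all genes were called in either direction. At the adjusted threshold 0 were called (median log2 difference 2.57). Their list correlated with the mean level of the members over the 18 cortex libraries (Pearson r = 0.68, Spearman's rho = 0.71, a description). In cerebellum r was −0.255 and in striatum −0.0994. The part of choroid plexus in the small positive differences of cortex was not tested.

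**Figure D5:**
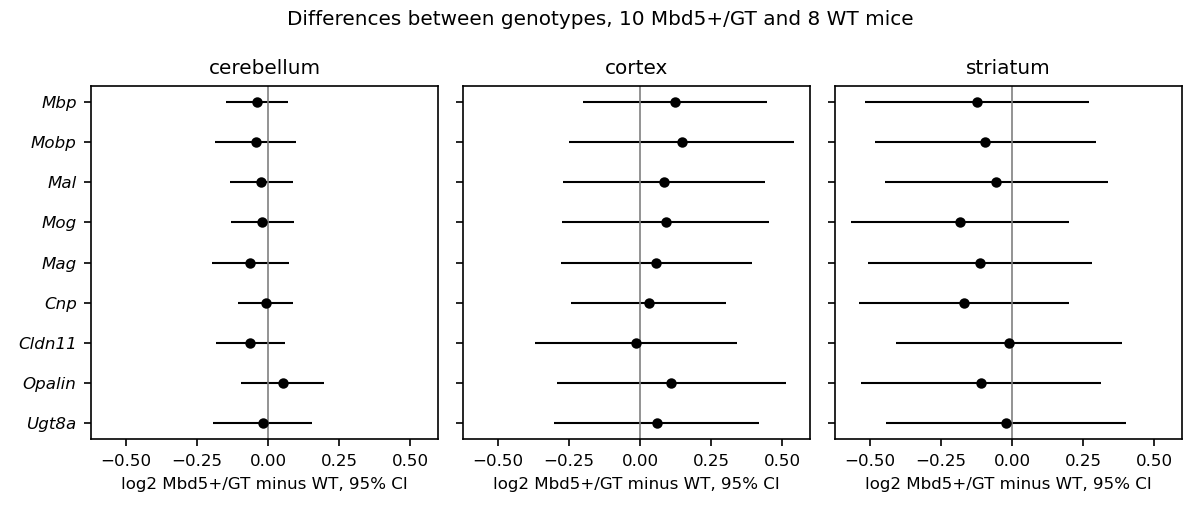
Log2 difference of Mbd5+/GT minus WT for the 9 members in each region (points) with 95% confidence intervals (bars), from the edgeR fits with surrogate variables over 10 Mbd5+/GT and 8 WT mice. Every interval includes 0, and the intervals are narrowest in cerebellum, where the surrogate variables took up 98.6% of the variance of the members.

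Of the 36 other myelin genes 0 were called in each region. At an unadjusted p under 0.05, Olig1, a lineage factor, was lower in cerebellum (−0.20 ± 0.07, p = 0.0064, adjusted p = 0.9999), Enpp2, which choroid plexus also expresses, was higher in cortex (0.68 ± 0.28, p = 0.032, adjusted p = 0.53), and 0 were in striatum (edgeR). Myrf differed by −0.08 ± 0.06 in cerebellum, 0.04 ± 0.12 in cortex and −0.12 ± 0.19 in striatum.

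The genotype effect was also compared between regions as an interaction over all 54 libraries, without surrogate variables. Of the 9 members 0 were called in each of the 3 contrasts by edgeR, where 0% of all genes were, and 0 of 9 at an unadjusted p under 0.05, where 1.11%, 2.68% and 4.22% of all genes were. The interaction terms ran from −0.46 (Opalin, striatum minus cerebellum, SE 0.44) to 0.14 (Ugt8a, striatum minus cerebellum, SE 0.39). The 95% confidence interval of the Opalin term was −1.35 to 0.43, so it was not told apart from 0. That spread includes the Hox and low Drd2 libraries.

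Within litters the direction of the genotype difference varied in cerebellum and cortex, and in striatum the median was negative in each of the 3 litters. In cerebellum the median over the 9 members of Mbd5+/GT minus WT was −0.33 in litter 1, 0.003 in litter 2 and 0.41 in litter 3. Litter 3 holds M755 and M754, whose cerebellum libraries were the highest of their genotypes. In cortex the medians were −0.05, 0.10 and 0.20, and in striatum −0.11, −0.19 and −0.19. These are plain differences of mean log2 levels with no surrogate variables, unlike the fit without litter 2 in which the differences in striatum were positive. Litter 2 had 1 WT mouse, so its values have no spread among WT. Tested with genotype as a term, litter changed 0 of 9 members in each region by edgeR, where 0%, 0% and 0.0162% of all genes were called in cerebellum, cortex and striatum. At an unadjusted p under 0.05 it changed Ugt8a in cerebellum (p = 0.027, adjusted p = 0.37) and 0 of 9 in cortex and striatum, against 13.3%, 7.8% and 12.2% of all genes. Litter 3 minus litter 1 was 0.61 to 1.02 in cerebellum, the lowest for Mobp and the highest for Opalin. Litter and sex cannot be told apart for litters 1 and 2, which held 1 sex each.

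Across mice of a region the levels of the members varied together, to degrees that differed between regions. The median Pearson r between pairs of members was 0.961 in cerebellum, 0.873 in cortex and 0.948 in striatum over 18 libraries each, and 0.857 and 0.88 in cerebellum without Hox libraries and striatum without low Drd2 libraries. These correlations share libraries and their scaling and are given as a description. Ugt8a followed the others least, with r of 0.922 against the mean of the other 8 in cerebellum, 0.721 in cortex and 0.795 in striatum, where Mbp had 0.993, 0.959 and 0.992. Without the Hox libraries r of Ugt8a was 0.342 in cerebellum (Mbp 0.952), and without the low Drd2 libraries it was 0.589 in striatum (Mbp 0.972). Outside the Hox libraries the highest mean level of the members was 1.95 times the lowest in cerebellum, and in cortex the range was 2.38 times.

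Mice with a higher level of the members in one region did not tend to have a higher level in another. The mean log2 level of the 9 members correlated between cortex and cerebellum of the same mouse with r = 0.07, between striatum and cortex with r = 0.04 and between striatum and cerebellum with r = −0.49 (Spearman's rho 0.08, −0.03 and −0.41, 18 mice, a description). For striatum and cerebellum the Hox and low Drd2 libraries come largely from the same mice, and over the 13 mice without them r was −0.46. For striatum and cortex r was −0.47 over 13 mice. Striatum exceeded cerebellum in this mean in 16 of 18 mice, and cortex in 17 of 18.

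The genes whose level followed the mean of the members most closely included known oligodendrocyte genes such as Bcas1 and Fa2h. Over 18 cerebellum libraries Prr5l (r = 0.988), Plekhb1 (0.987), Gltp (0.987) and Efnb3 (0.983) were among the 10 closest of 13687 genes with enough counts, as were Lpcat2, B630019K06Rik, Tmem63a and Prr18 (0.983 to 0.981). In cortex the 10 closest included Prr18 (0.96), 1700047M11Rik (0.94), Bcas1 (0.932) and Gjb1 (0.931), followed by Rffl, Tmem88b, Plekhb1, Tmem125 and Evi2a (0.929 to 0.899). In striatum they were Bcas1 (0.983), Plekhb1 (0.981), S1pr5 (0.979), Fa2h and Tnni1 (0.974), followed by Prr18, Gltp, Sept4, Tmem125 and Slc44a1 (0.974 to 0.961). Of the 36 other myelin genes 12, 19 and 18 were among the 100 genes most like the members in cerebellum, cortex and striatum, and 10 and 20 in cerebellum without Hox libraries and striatum without low Drd2 libraries. Among the lineage factors Myrf followed the members in striatum (r = 0.87) and cortex (0.65). In cerebellum its r was 0.93 with all 18 libraries and 0.28 without the 4 Hox libraries. The other lineage factors, Sox10, Olig1, Olig2 and Nkx6-2, differed from Myrf there, at 0.85, 0.90, 0.92 and 0.79 without the Hox libraries. In cortex they had 0.50, 0.445, 0.52 and 0.73. In cerebellum without Hox libraries the microglial list (r = 0.94), the endothelial list (0.81), the neuronal list (0.69), the list of cerebellar neurons (0.47) and the share of spike-in reads (0.83) were positively correlated with the members, and the lists of astrocytes (−0.24) and choroid plexus (−0.62) negatively, over 14 libraries. Single genes could differ from their list, as did Gfap of astrocytes (0.93) and Gabra6 of granule neurons (−0.77). Their part in the spread of the members was not tested.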

How the data were processed

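Poly(A) RNA of 3 brain regions from 18 mice was sequenced. The authors deposited raw counts of reads per Ensembl gene, made with STAR 2.4.2 (GeneCounts) on GRCm38 after quality control with FastQC 0.10.1. The strand column taken is not given in the sources used here. Of 47069 genes, 46574 were matched to GENCODE M21, and 92 spike-in rows were left out of library sizes.

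Genes were kept where 8 or more libraries held over 4 counts, and were tested with edgeR 4.0.16 (R 4.3.3, quasi-likelihood, TMM, robust) and Benjamini-Hochberg adjustment at 0.05. Genotype was fitted per region over all 18 libraries with surrogate variables from sva 3.50.0 (2 in cerebellum, 4 in cortex, 4 in striatum), the numbers that the study used. Litter and sex, which are unbalanced between genotypes, were fitted in their place as an alternative. Region and interaction were fitted over 54 libraries in 6 groups of genotype and region, and litter with 2 degrees of freedom beside genotype. The script was tested on simulated data. Mean log2 levels used CPM with a prior count of 2, and genes with a mean count of 50 or more were ranked for likeness by Pearson r. Medians and ranges are of CPM.

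Genes named outside the members are Myrf, up to 3 genes with the smallest p in each direction in the list of 36, and the 10 genes most like the members in each region. The other lineage factors of that list are named beside Myrf in the correlations. Mbd5 is named as the check of the gene trap, and single markers of other cell types (Gabra6, Drd2, Slc17a7 and Gfap) were singled out after their values were seen. Some genes that these rules pick are not reported here. The members and lists were chosen with earlier results of these data known. DESeq2 1.42.0, other scalings and filters, left-out mice, litter 2 and marked libraries were tried as alternatives. The 3 libraries of a mouse come from 1 animal, so the mouse number pairs them. Deviations from the group means correlated between regions of a mouse with medians of 0.164 (cortex and cerebellum), 0.0611 (striatum and cerebellum) and 0.0914 (striatum and cortex).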

Additional observations from a re-analysis of the deposited data

Results flagged for a closer look

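Of 54 groups tested (9 genes, 3 regions and 2 genotypes), 17 had a highest library further from the others than Dixon's limit for the group allows, where chance flags about 1 in 20. All 17 were in cerebellum, in the libraries of M755 and M754, which also carry Hox transcripts. The 9 genes were read in the same libraries and vary together, so the 17 flags are not separate observations. The rate of 1 in 20 applies to each group taken alone.

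Among the Mbd5+/GT mice the library labelled cerebellum of M755 was apart from the other 9 in all 9 genes. It had 13718 CPM of Mbp, where the next had 3710 CPM. The other levels in that library were 3904 CPM of Mobp, 927 CPM of Mal, 397 CPM of Mog, 954 CPM of Mag, 1241 CPM of Cnp, 579 CPM of Cldn11, 90.3 CPM of Opalin and 396 CPM of Ugt8a.

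Among the WT mice the cerebellum library of M754 was apart in 8 of 9 genes. It had 7858 CPM of Mbp, where the next had 3860 CPM. It also had 534 CPM of Mal, 228 CPM of Mog, 641 CPM of Mag, 826 CPM of Cnp, 322 CPM of Cldn11, 39 CPM of Opalin and 265 CPM of Ugt8a, while its Mobp level, 2563 CPM, lay within the limit. The part of the Hox-bearing tissue in these levels was not tested.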

How the results depend on the processing

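Genotype calls stayed at 0 of 9 members in every region under each alternative tried (DESeq2, other scalings, filters and covariates, left-out mice, litter 2 and marked libraries). In striatum these included a fit without the libraries labelled rep. The small differences between genotypes often changed sign, and the cause was not tested. Without surrogate variables, the values in cerebellum that changed sign were 0.13 for Mbp, 0.0255 for Mobp, 0.11 for Mal, 0.16 for Mog, 0.10 for Mag, 0.0935 for Cnp, 0.12 for Cldn11 and 0.0343 for Ugt8a. With 1 surrogate variable fewer, the values in cerebellum that changed sign were 0.0104 for Mbp, 0.00927 for Mal, 0.0518 for Mog, 0.0164 for Mag and 0.0415 for Cnp. With litter and sex in place of surrogate variables, the values in cerebellum that changed sign were 0.00289 for Mbp, 0.0102 for Mal, 0.0255 for Mog, 0.0297 for Mag and 0.0374 for Cnp. Without litter 2, the values in cerebellum that changed sign were −0.00464 for Opalin. Without the library of M755, the values in cerebellum that changed sign were 0.00326 for Mog. Without the Hox libraries, the values in cerebellum that changed sign were −0.0350 for Opalin. Without surrogate variables, the values in cortex that changed sign were 0.00477 for Cldn11. Without a filter on low counts, the values in cortex that changed sign were −0.0621 for Mbp, −0.0681 for Mobp, −0.0715 for Mal, −0.0897 for Mog, −0.0586 for Mag, −0.0640 for Cnp, −0.0665 for Opalin and −0.0508 for Ugt8a. With at least 10 counts in every library, the values in cortex that changed sign were −0.00636 for Mog, −0.00396 for Cnp, −0.000658 for Opalin and −0.0285 for Ugt8a. Without litter 2, the values in cortex that changed sign were −0.0240 for Mog and −0.0536 for Ugt8a. Without surrogate variables, the values in striatum that changed sign were 0.0617 for Cldn11 and 0.16 for Ugt8a. With 1 surrogate variable fewer, the values in striatum that changed sign were 0.0174 for Mobp, 0.00732 for Mal, 0.11 for Cldn11 and 0.11 for Ugt8a. With litter and sex in place of surrogate variables, the values in striatum that changed sign were 0.0612 for Cldn11 and 0.20 for Ugt8a. Without a filter on low counts, the values in striatum that changed sign were 0.0124 for Mal, 0.0727 for Cldn11 and 0.0541 for Ugt8a. Without litter 2, the values in striatum that changed sign were 0.0949 for Mbp, 0.14 for Mobp, 0.14 for Mal, 0.0775 for Mog, 0.17 for Mag, 0.0396 for Cnp, 0.0897 for Cldn11, 0.12 for Opalin and 0.25 for Ugt8a. Without the low Drd2 libraries, the values in striatum that changed sign were 0.0396 for Mobp, 0.0132 for Mal, 0.00813 for Mag, 0.0205 for Cldn11 and 0.14 for Ugt8a. Leaving out 1 mouse at a time turned signs in cerebellum within ranges of −0.0461 to 0.0132 for Mog, −0.0385 to 0.00773 for Cnp and −0.0544 to 0.0494 for Ugt8a. Leaving out 1 mouse at a time turned signs in cortex within ranges of −0.16 to 0.19 for Mbp, −0.15 to 0.22 for Mobp, −0.14 to 0.15 for Mal, −0.17 to 0.17 for Mog, −0.12 to 0.17 for Mag, −0.13 to 0.11 for Cnp, −0.21 to 0.0578 for Cldn11, −0.22 to 0.20 for Opalin and −0.18 to 0.14 for Ugt8a. Leaving out 1 mouse at a time turned signs in striatum within ranges of −0.32 to 0.00384 for Mbp, −0.28 to 0.0332 for Mobp, −0.25 to 0.0817 for Mal, −0.31 to 0.00322 for Mag, −0.19 to 0.14 for Cldn11, −0.30 to 0.0294 for Opalin and −0.17 to 0.10 for Ugt8a.

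For the regions, DESeq2 called the same numbers of members (5, 8 and 9). Leaving out 1 mouse at a time gave 5 to 6 members called for cortex against cerebellum, 8 in each case for striatum against cerebellum and 8 to 9 for striatum against cortex. Without litter 2 the count for striatum against cerebellum was 4, with 13 mice in the fit. Of the 36 other myelin genes 11 were then called there, against 20 with all mice and 30 without the Hox and low Drd2 libraries. No share of all genes is given here for the fit without litter 2. Mal in cortex minus cerebellum turned to −0.019 without a filter on low counts and to −0.11 without litter 2, and ranged from −0.0222 to 0.21 with 1 mouse left out. Without the Hox and low Drd2 libraries Mobp turned to 0.057 and Cldn11 to 0.16 in cortex minus cerebellum, and Ugt8a to 0.38 in striatum minus cerebellum. In WT mice alone the calls of Mog in cortex minus cerebellum (−0.55, adjusted p = 0.052, edgeR) and of Ugt8a in striatum minus cortex (0.43, adjusted p = 0.13) were lost. Upper quartile scaling moved the median of all genes in striatum minus cerebellum from 0.002 to 0.111 and no other contrast by more than 0.1. With the mouse as a replicate block the members called numbered 5, 8 and 9, and Mbp was at −0.52 for cortex minus cerebellum (adjusted p = 0.025), 0.71 for striatum minus cerebellum and 1.23 for striatum minus cortex, and the block changed no call of a member.

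Depth did not limit these transcripts, which were counted at least 161 times in each library. The spread between dissected pieces, seen in the Hox and low Drd2 libraries, and the imbalance of litter and sex between genotypes limit the comparisons. Surrogate variables estimated from the same libraries took up most of the spread in cerebellum, so its narrow intervals hold only given those variables. Litter 2 has 1 WT mouse.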
